A study of Caenorhabditis elegans with 8 samples.

Results

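The abu and pqn genes of Caenorhabditis elegans encode proteins rich in glutamine and asparagine. The members described here were all rows of the 6 deposited count tables whose gene symbol begins with abu- or pqn-, which gave 54 of 14396 transcripts. They carried 51 symbols, 11 abu and 40 pqn, and pqn-52, pqn-65 and pqn-83 had 2 transcripts each. A filter on low counts left 45 members for testing, 9 abu and 36 pqn transcripts. The 9 that did not pass were abu-4, abu-12, pqn-11, pqn-44, pqn-71, pqn-84, pqn-90, pqn-91 and the less counted transcript of pqn-52. A member could pass through the groups in which it was high, so the tested members do not stand for all 54.

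The name abu is short for activated in blocked unfolded protein response, after genes that rise when protein folding stress in the endoplasmic reticulum cannot be answered in the usual way. Many ABU proteins and the PQN proteins most like them are secreted and build the cuticle that lines the pharynx, the feeding organ, and their transcripts cycle with the molts. The prefix pqn stands only for a prion-like stretch rich in glutamine and asparagine, and it also covers unlike proteins. Among them pqn-85 is scc-2, which loads cohesin onto chromosomes, and pqn-59 is the homolog of UBAP2L, an RNA-binding protein of stress granules. Being a secreted protein therefore holds for some of the members only, and amino acid content was not examined here.

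RNA was sequenced from whole bodies of L4 larvae of the Bristol strain grown at 22 °C. The 8 groups combined 2 genotypes, wild type and damt-1, with no treatment or with 1.92 µM antimycin A under the labels P0, F1 and F2. Antimycin A stops electron transport in mitochondria at complex III. The gene damt-1 is a methyltransferase-like gene linked to adenine methylation of DNA. Each group had 2 replicate libraries, 16 in all, with totals between 3541390 and 4365451 counts. The P0, F1 and F2 comparisons of a genotype share its 1 untreated group, so they are not independent of each other. The labels do not give the damt-1 allele, do not say whether the parents of F1 and F2 worms were exposed, and differ on whether exposure began at the egg or at L1. The submitters' text names mitochondrial stress as the subject of the study.

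Nothing in the labels says that the 2 libraries of a group came from separate cultures, so the p-values measure the spread between these libraries, which may be technical. That spread was small, with a biological coefficient of variation of 2.18%. The damt-1 transcript itself was at 19.8 ± 0.247 CPM (counts-per-million, mean ± SD, n = 2) in untreated wild type and at 19.4 ± 3.44 CPM in untreated damt-1 (edgeR adjusted p = 0.93). With antimycin A it was lower in damt-1 than in wild type, with log2 differences of -0.59 ± 0.18 in P0 and -0.77 ± 0.18 in F1 (SE, edgeR adjusted p = 0.015 and 0.00086), and F2 was not called (log2 -0.39 ± 0.17, edgeR adjusted p = 0.062). Both wild type libraries lay above both damt-1 libraries under each of these labels. Untreated levels did not separate the genotypes, and damt-1 below means the libraries labelled so.

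The 6 treated damt-1 libraries differed from each other about as little as replicates do. The chi-square per degree of freedom of their counts was 1.24 to 1.88 over the 12 pairs with different labels and 1.35 to 1.72 over the 3 pairs with the same label. In treated wild type the same ranges were 1.27 to 6.66 and 1.17 to 1.43. Nothing in the labels shows whether the damt-1 groups P0, F1 and F2 were raised apart from each other, so their values are given under each label and are not counted as 3 independent observations of a change. In RNA of whole worms, fewer cells of a kind and less RNA per cell cannot be told apart.

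Per length, abu-13 and pqn-59 were the most abundant tested members in untreated wild type, at 270 and 275 CPM per kb of spliced transcript. Next came abu-14 at 155 CPM per kb and pqn-96 at 119.4 CPM per kb. The remaining abu members were far lower on this scale, from 24.0 CPM per kb for abu-11 to 1.33 CPM per kb for abu-6. Both leading members reached more than 1 count per nucleotide in some library (1.1 for abu-13 and 1.17 for pqn-59). Whether duplicate reads were removed is not given in the sources used here, and removal would compress differences at such a density.

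In untreated worms, the abu members were lower in damt-1 than in wild type, and several were close to absent there. All 9 tested abu members passed the test as lower and 0 as higher, in a comparison in which 20.3% of all transcripts were called lower and 17.9% higher. Their median log2 difference was -4.30 with the members at 0 set to their bound, beside -0.001 over all transcripts tested. Over all tested members, 25 were lower and 6 higher of 45, where 38.2% of all transcripts were called in either direction. When scaling factors came from transcripts under 0.2 counts per nucleotide, 20 were lower and 9 higher. That scaling took calls over all transcripts from 4769 to 5177.

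abu-1 gave 21.2 and 19.8 CPM in the untreated wild type libraries and 0 counts in both untreated damt-1 libraries. Against a floor of 3 counts over both libraries it was at least 52.3-fold lower in damt-1 (edgeR adjusted p = 5.7e-11). abu-15 and abu-7 were also at 0 counts in both damt-1 libraries. Their wild type libraries held 7.34 and 9.67 CPM of abu-15 and 8.92 and 6.61 CPM of abu-7, so they were at least 21.9-fold and at least 19.6-fold lower in damt-1. In RefSeq abu-6, abu-7 and abu-15 lie next to each other, and the treatment of reads that map to more than 1 copy is not given, so the split of counts among these similar genes is uncertain.

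abu-10 and abu-6 were near 0 in untreated damt-1, with 2 counts and 1 count over both libraries. abu-10 stood at 9.18 and 8.73 CPM in wild type, a count ratio of 34.2 with an exact 95% counting interval from 9.13 to 288. For abu-6 the wild type libraries were at 2.62 and 0.472 CPM, a ratio of 11.4 with an interval from 1.69 to 488. The call for abu-6 was lost without the first untreated wild type library (log2 -1.64, edgeR adjusted p = 0.44) and without the first untreated damt-1 library (log2 -2.42, edgeR adjusted p = 0.15). Counting intervals cover counting error only.

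abu-11 and abu-8 kept a few counts. abu-11 was at 33.3 and 28.8 CPM in untreated wild type and at 0 and 1.52 CPM in untreated damt-1, a fitted log2 difference of -5.25 ± 0.37 (SE, edgeR adjusted p = 2.6e-11). The fitted value rests on 6 counts, and it was -4.32 without the first untreated damt-1 library and -9.93 without the second. abu-8 was at 13.9 and 13.2 CPM in wild type and at 1.89 and 0 CPM in damt-1 (log2 -3.84 ± 0.47, edgeR adjusted p = 3.9e-07), which was -8.75 and -2.82 without the first and the second untreated damt-1 library. In neither member did the libraries of the genotypes overlap.

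The 2 most counted abu members fell by less. abu-14, which is needed for a sound pharyngeal cuticle, went from 222 and 215 CPM in wild type to 46.1 and 38.3 CPM in damt-1 (log2 -2.37 ± 0.07, edgeR adjusted p = 7.2e-19). abu-13 was at 515 and 479 CPM in wild type and at 426 and 418 CPM in damt-1 (log2 -0.23 ± 0.05, edgeR adjusted p = 0.00024). With scaling from sparse transcripts the difference of abu-13 was -0.15 and was no longer called (edgeR adjusted p = 0.079). Leaving out abu-13, the summed level of the other abu members was 318 and 303 CPM in the untreated wild type libraries and 48.6 and 40.0 CPM in the untreated damt-1 libraries.

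**Figure D1:**
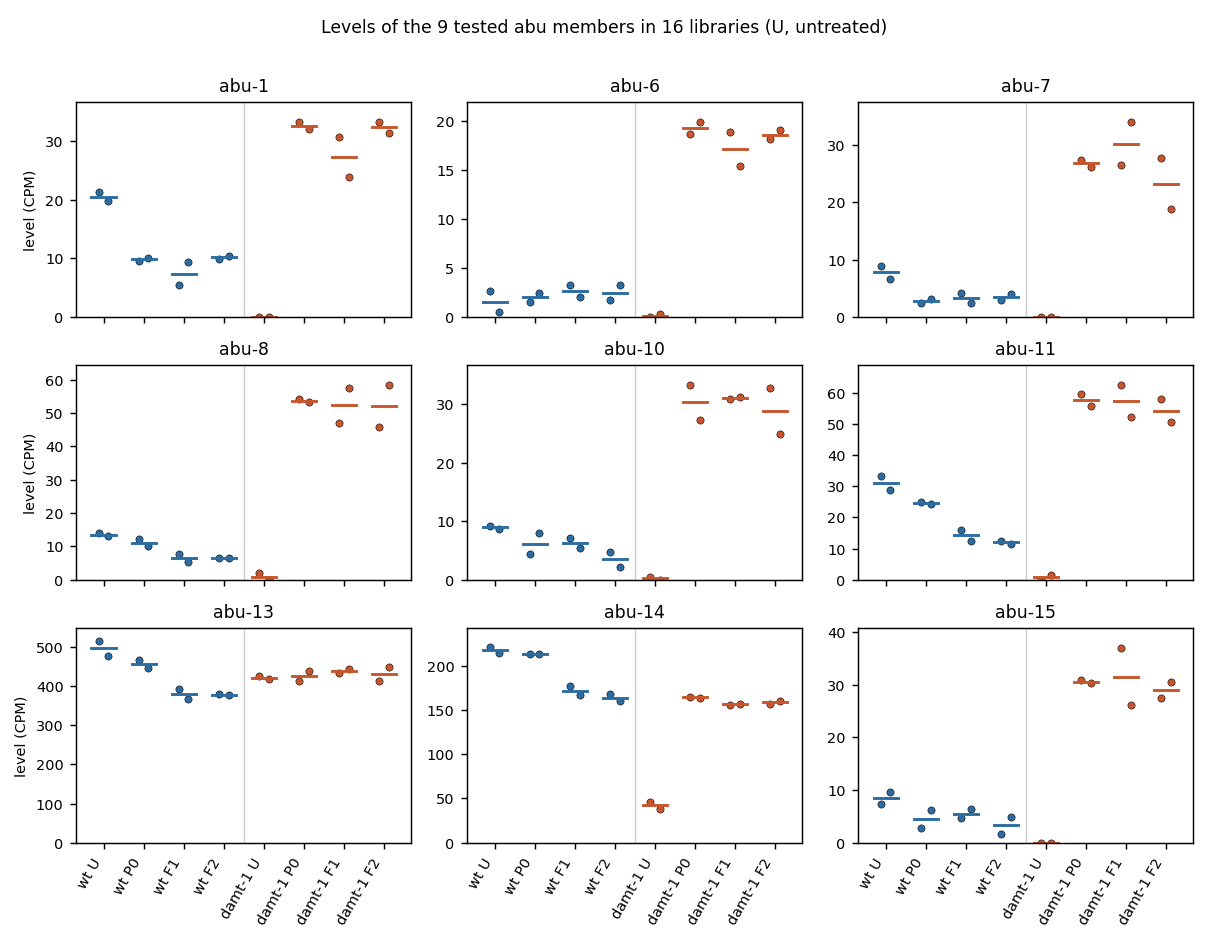
Level in CPM (vertical axes, starting at 0 with a separate scale per gene) of each tested abu member in the 16 libraries, with wild type in blue and damt-1 in orange, points for libraries and bars for the mean of 2. In untreated damt-1, abu-1, abu-7 and abu-15 are at 0, and in the treated damt-1 groups all members but abu-13 and abu-14 stand above every wild type library.

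With antimycin A the abu members rose in damt-1 from this low level. In each of P0, F1 and F2, 8 of the 9 tested abu members were called higher and 0 lower against untreated damt-1, where 8.41%, 7.69% and 7.9% of all transcripts were called higher. Over abu and pqn together 16 rose and 1 fell of 44 in P0, and 18 rose and 0 fell of 45 in F1 and in F2, where 14.1%, 13.2% and 13.7% of all transcripts were called in either direction. The abu exception was abu-13, at 414 and 439 CPM in P0 beside 426 and 418 CPM untreated. Its log2 differences were 0.02 ± 0.05, 0.05 ± 0.05 and 0.03 ± 0.05 in P0, F1 and F2.

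In damt-1 P0, abu-1 reached 33.2 and 32.1 CPM, at least 83.4-fold above the floor of the untreated group (edgeR adjusted p = 7e-12). It was at 30.7 and 23.8 CPM in F1 and at 33.3 and 31.5 CPM in F2, at least 69.3-fold and at least 82.7-fold higher. Every treated damt-1 library also lay above both untreated wild type libraries of abu-1. For abu-15 the P0 libraries gave 31.0 and 30.2 CPM and for abu-7 27.5 and 26.3 CPM, at least 78.1-fold and at least 68.6-fold higher than untreated damt-1.

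abu-10 gave 33.2 and 27.3 CPM in damt-1 P0, a count ratio to untreated damt-1 of 116 with an exact 95% counting interval from 31.8 to 965. abu-6 gave 18.7 and 19.9 CPM, a ratio of 148 with an interval from 26.1 to 5871. abu-11 stood at 59.4 and 55.7 CPM in P0, at 62.4 and 52.1 CPM in F1 and at 57.9 and 50.6 CPM in F2. All 6 treated damt-1 libraries of abu-11 were above its untreated wild type libraries.

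abu-8 behaved like abu-11 in damt-1, with 54.2 and 53.3 CPM in P0, 47.1 and 57.6 CPM in F1 and 45.8 and 58.4 CPM in F2. For both members the fitted log2 difference of P0 to untreated damt-1 depended on which untreated library was used. For abu-11 it was 6.14, and 5.21 or 10.82 without the first or the second untreated damt-1 library. For abu-8 it was 5.83, and 10.73 or 4.81 in the same order. abu-14 rose from 46.1 and 38.3 CPM to 165 and 163 CPM in P0, 156 and 156 CPM in F1 and 157 and 160 CPM in F2. Its log2 differences were 1.96 ± 0.07, 1.89 ± 0.07 and 1.91 ± 0.07 (SE), and it stayed below its untreated wild type libraries in all 3 groups.

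Among the damt-1 groups labelled P0, F1 and F2, whose libraries differed about as little as replicates, no member differed past the threshold, and the same held for every transcript tested. edgeR called 0 of 12408 transcripts in F1 against P0 and 0 of 12412 in F2 against P0, 0% in each, and DESeq2 also called 0. At an unadjusted p under 0.05 edgeR found 555 and 573 transcripts, and DESeq2 found 226 and 263. Such a cutoff would pass more of the transcripts tested than this if no level differed. The log2 differences of the 9 abu members ran from -0.26 to 0.17 in F1 against P0 and from -0.20 to 0.02 in F2 against P0.

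In wild type, antimycin A went with lower abu levels, and the opposite direction was not called for any tested abu member. In P0, 2 of 9 were called lower, in F1 6 and in F2 8, where 8.14%, 20.7% and 21% of all transcripts were called lower. abu-1 fell from 21.2 and 19.8 CPM to 9.57 and 10.1 CPM in P0, 5.45 and 9.29 CPM in F1 and 9.86 and 10.4 CPM in F2. The log2 differences were -1.06 ± 0.22, -1.46 ± 0.23 and -1.01 ± 0.22 (SE, edgeR adjusted p = 0.001, 1.6e-05 and 0.00056). All treated wild type libraries of abu-1 were below both untreated ones.

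abu-11 was at 25.1 and 24.4 CPM in wild type P0, at 16.1 and 12.5 CPM in F1 and at 12.6 and 11.4 CPM in F2, beside 33.3 and 28.8 CPM untreated. It was not called in P0 (log2 -0.32 ± 0.18, edgeR adjusted p = 0.22) and was lower in F1 (log2 -1.12 ± 0.19, edgeR adjusted p = 4.4e-05) and F2 (log2 -1.37 ± 0.20, edgeR adjusted p = 6.3e-06). F1 and F2 were also below P0 in wild type, by -0.80 ± 0.20 and -1.04 ± 0.21 (edgeR adjusted p = 0.0057 and 0.00081). The first of these was lost without the second F1 library (log2 -0.64, edgeR adjusted p = 0.092).

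abu-14 was at 213 CPM in both wild type P0 libraries, at 177 and 167 CPM in F1 and at 168 and 160 CPM in F2. It was lower than untreated in F1 by -0.34 ± 0.05 and in F2 by -0.41 ± 0.05 on the log2 scale (edgeR adjusted p = 2.8e-06 and 2.8e-07), and abu-13 by -0.38 ± 0.05 and -0.39 ± 0.05. abu-8 was lower in F1 (log2 -1.08 ± 0.30) and F2 (log2 -1.07 ± 0.30), the former no longer called without the second F1 library (log2 -0.85, edgeR adjusted p = 0.066). abu-10 and abu-15 were called lower in F2 and not in P0 or F1. Without the second F2 library abu-10 was at -0.96 (edgeR adjusted p = 0.074). Without the first F2 library abu-15 was at -0.78 and without the second untreated library at -1.12 (edgeR adjusted p = 0.16 and 0.084).

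abu-7 fell in wild type by -1.49 ± 0.38, -1.21 ± 0.36 and -1.15 ± 0.36 on the log2 scale in P0, F1 and F2, from 8.92 and 6.61 CPM to 2.33 and 3.12 CPM in P0. None of these calls was kept without the first untreated library, where the values were -1.26, -0.99 and -0.92 (edgeR adjusted p = 0.072, 0.085 and 0.11). They were also lost without the first P0, the second F1 and the first F2 library, at -1.30, -0.90 and -0.95. abu-6 was between 0.472 and 3.23 CPM in all wild type libraries and was not called against untreated. Without the first untreated library it was called higher in F1 and F2 (log2 2.39 and 2.32, edgeR adjusted p = 0.028 and 0.034).

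Set against wild type under the same label, the treated damt-1 libraries held more of most abu members. Higher calls covered 7 of 9 in P0 and 8 of 9 in both F1 and F2, where 15.5%, 24.6% and 23.3% of all transcripts were called higher. In P0, abu-7 and abu-6 differed most, by 3.28 ± 0.31 and 3.26 ± 0.39 on the log2 scale (edgeR adjusted p = 1.5e-08 and 4.2e-07). abu-14 was lower in damt-1 in P0 (log2 -0.38 ± 0.05, edgeR adjusted p = 1.9e-06). Its differences in F1 and F2 were -0.14 ± 0.05 and -0.05 ± 0.05, of which the first was lost when any 1 of its 4 libraries was left out. With scaling from sparse transcripts they turned to 0.10, with no call (edgeR adjusted p = 0.19), and to 0.17, called higher (edgeR adjusted p = 0.031).

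The difference between the genotypes in their change with antimycin A was tested directly as an interaction. It was called higher, meaning a larger rise or a smaller fall in damt-1, for 8 of 9 abu members in P0 and for 9 of 9 in F1 and in F2. Of all transcripts, 10.5%, 18.6% and 18.6% were called higher and 11.5%, 21.7% and 21.5% lower, together 22%, 40.4% and 40.1%. Over all tested members the interaction gave 17 higher and 3 lower of 43 in P0, 21 and 10 of 45 in F1, and 20 and 8 of 45 in F2. With scaling from sparse transcripts F2 gave 23 and 5, and its calls over all transcripts went from 4968 to 5058. For abu-14 the interaction was 2.00 ± 0.09, 2.24 ± 0.09 and 2.32 ± 0.09 on the log2 scale.

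**Figure D2:**
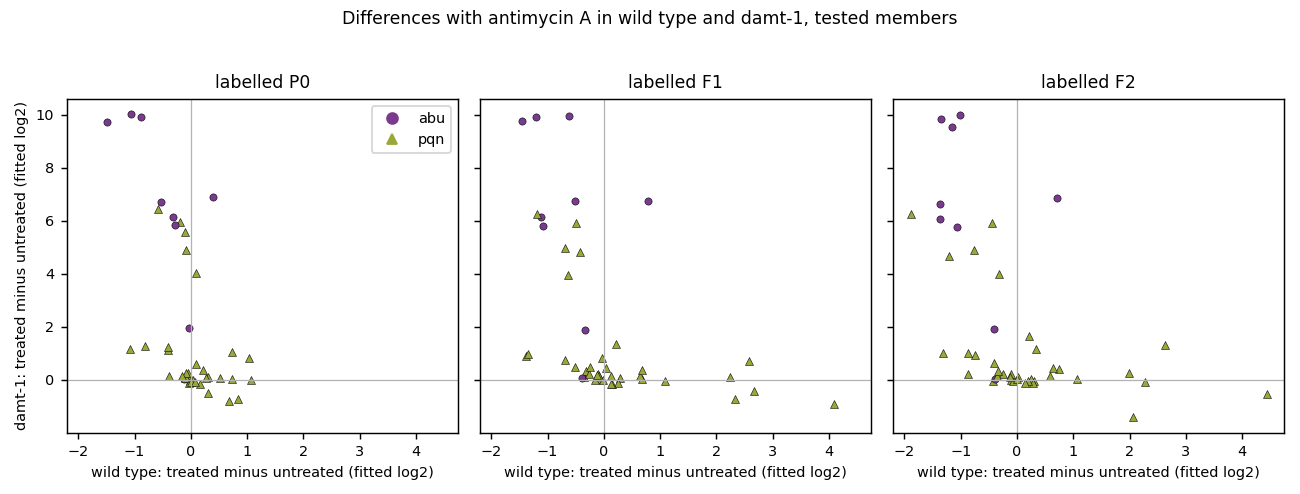
Fitted log2 difference of treated to untreated in damt-1 (vertical axis) against that in wild type (horizontal axis) for each tested member under the labels P0, F1 and F2, with circles for abu and triangles for pqn. Most abu circles sit high on the vertical axis, up to 10.01 in P0, but abu-13 is at 0.02 there. On the horizontal axis the abu circles lie mostly left of 0. Members with a group at 0 counts have fitted values that depend on the prior count.

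abu-4 and abu-12 were too low to test. abu-4 was at 0 counts in untreated damt-1 and at 2.46 and 0.524 CPM in damt-1 F1 and 2.52 and 0.289 CPM in damt-1 F2. abu-12 was listed in 1 of the 6 tables, at 0.262 and 1.18 CPM in untreated wild type and 0.495 and 1.36 CPM in wild type F1. A table lists a transcript only where its 4 libraries sum to more than 10 counts, so the values in other groups are not given.

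The pqn transcripts fell into several patterns, a grouping made after their values were seen. A first set had the abu pattern, low in untreated damt-1 and higher in treated damt-1. pqn-2, which neighbours abu-1 in RefSeq, was at 19.9 and 18.6 CPM in untreated wild type and had 1 count in each untreated damt-1 library. It was at 26.5 and 24.4 CPM in damt-1 P0, 19.99 and 24.9 CPM in F1 and 24.4 and 19.9 CPM in F2. The count ratio of P0 to untreated damt-1 was 97.5, with an exact 95% counting interval from 26.6 to 810.

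In wild type pqn-2 was lower with each label, from 11.1 and 14.4 CPM in P0 through 7.67 and 9.06 CPM in F1 to 4.68 and 5.71 CPM in F2. The log2 differences were -0.59 ± 0.21, -1.20 ± 0.22 and -1.88 ± 0.24 (SE, edgeR adjusted p = 0.045, 9.3e-05 and 8.6e-07). The P0 call was lost when any 1 of its 4 libraries was left out, with values from -0.42 to -0.79, under DESeq2 and with a replicate block (edgeR adjusted p = 0.051). F2 also lay below P0 by -1.30 ± 0.26 (edgeR adjusted p = 0.00073).

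pqn-63 was at 43.3 and 42.9 CPM in untreated wild type and at 1.08 and 1.01 CPM in untreated damt-1 (log2 -5.32 ± 0.28, edgeR adjusted p = 7.9e-14). Its damt-1 P0 libraries were at 35.7 and 27.9 CPM, F1 at 30.7 and 36.7 CPM and F2 at 28.2 and 26.6 CPM. All treated damt-1 libraries were far above the untreated ones and below untreated wild type. In wild type it went from 42.7 and 39.1 CPM in P0 to 29.2 and 24.5 CPM in F1 and 19.2 and 17.9 CPM in F2. F1 and F2 were below untreated, by -0.69 ± 0.14 and -1.21 ± 0.15 (edgeR adjusted p = 0.0003 and 5e-07).

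pqn-29 gave 17.0 and 18.9 CPM in untreated wild type and 1 count over both untreated damt-1 libraries, a count ratio of 138 with an exact 95% counting interval from 24.3 to 5481. It returned to only 9.99 and 5.31 CPM in damt-1 P0, 4.65 and 4.45 CPM in F1 and 4.03 and 5.78 CPM in F2. Those libraries were all below the untreated wild type libraries. Against wild type F1 the difference was -1.55 ± 0.35 (edgeR adjusted p = 0.00075). The calls against wild type P0 and F2, -1.11 ± 0.31 and -1.11 ± 0.36, were lost without the second damt-1 P0 library (log2 -0.74) and without the second wild type F2 (log2 -0.62) or first damt-1 F2 library (log2 -0.87).

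pqn-54 and pqn-74, named after their values were seen, had 6 and 7 counts over both untreated damt-1 libraries. pqn-54 was at 25.7 and 36.3 CPM in untreated wild type and at 54.4 and 46.4 CPM in damt-1 P0. pqn-74 was at 9.97 and 9.91 CPM in untreated wild type and at 17.0 and 13.8 CPM in damt-1 P0. For both, the treated damt-1 libraries stood above the untreated wild type ones.

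pqn-37 and pqn-26 were reduced, not near 0, in untreated damt-1. pqn-37 went from 78.9 and 93.9 CPM in wild type to 18.1 and 21.3 CPM in damt-1 (log2 -2.13 ± 0.12, edgeR adjusted p = 2.1e-13), and was at 46.5 and 48.3 CPM in damt-1 P0. In wild type it was at 51.7 and 47.2 CPM in P0, 34.2 and 34.0 CPM in F1 and 33.8 and 36.2 CPM in F2, lower by -0.81 ± 0.10, -1.35 ± 0.10 and -1.31 ± 0.10 (edgeR adjusted p = 7.7e-07, 1.2e-10 and 2.2e-10). pqn-26 went from 58.7 and 56.6 CPM to 13.2 and 13.9 CPM in untreated damt-1 and to 27.7 and 37.1 CPM in damt-1 P0.

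A second set of pqn members rose with antimycin A in wild type. pqn-25 was at 3.93 and 6.37 CPM untreated, 6.98 and 14.1 CPM in P0, 32.2 and 30.1 CPM in F1 and 33.0 and 31.8 CPM in F2. The log2 differences in F1 and F2 were 2.57 ± 0.28 and 2.63 ± 0.28 (SE, edgeR adjusted p = 5.7e-08 and 3.9e-08), and F1 exceeded P0 by 1.54 ± 0.25 (edgeR adjusted p = 5.7e-05). In P0 the difference was 1.03 ± 0.33 (edgeR adjusted p = 0.026), and it was 0.74 and 0.42 without the first untreated and the second P0 library (edgeR adjusted p = 0.23 and 0.56). In damt-1 it was at 2.16 and 2.28 CPM untreated, at 4.11 and 3.14 CPM in F1 and at 7.05 and 4.04 CPM in F2, with no call for treatment in P0, F1 or F2. The F2 difference was 1.33 ± 0.45 (edgeR adjusted p = 0.053), and it was called higher with scaling from sparse transcripts (log2 1.34, edgeR adjusted p = 0.043) and without the second damt-1 F2 library (log2 1.65, edgeR adjusted p = 0.03).

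pqn-94, pqn-82 and pqn-88 had levels of a few CPM in untreated wild type and were higher in F1 and F2. pqn-94 went from 3.15 and 3.30 CPM to 14.4 and 18.3 CPM in F1 and 15.04 and 16.4 CPM in F2 (log2 2.33 ± 0.36 and 2.27 ± 0.37, edgeR adjusted p = 1.2e-05 and 1.8e-05). pqn-82 went from 2.36 and 2.595 CPM to 12.4 and 11.3 CPM in F1 and 9.37 and 10.4 CPM in F2 (log2 2.24 ± 0.46 and 1.98 ± 0.47). pqn-88 went from 1.84 and 1.89 CPM to 14.9 and 9.29 CPM in F1 and 9.12 and 6.70 CPM in F2 (log2 2.67 ± 0.43 and 2.07 ± 0.46).

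None of these 3 was called with treatment in damt-1, where pqn-94 was at 3.24 and 5.58 CPM untreated and at 3.29 and 2.09 CPM in F1. The interaction was lower in damt-1 in F1 for pqn-94 (log2 -3.05 ± 0.60, edgeR adjusted p = 0.00024), pqn-88 (log2 -3.10 ± 0.62, edgeR adjusted p = 0.00031) and pqn-82 (log2 -2.14 ± 0.73, edgeR adjusted p = 0.021). For pqn-82 it was -0.89, -2.08 and -1.90 without the second untreated damt-1, the first untreated wild type and the second damt-1 F1 library (edgeR adjusted p = 0.52, 0.053 and 0.066). For pqn-25 it was -1.88 ± 0.61 in F1 (edgeR adjusted p = 0.017). That call was lost without the first untreated wild type, either untreated damt-1 or the second damt-1 F1 library, at values from -1.59 to -1.91.

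pqn-92 and pqn-48 were higher in wild type with all 3 labels and were also higher in untreated damt-1. pqn-92 was at 59.3 and 43.4 CPM in untreated wild type, 84.3 and 85.1 CPM in P0, 107 and 108 CPM in F1 and 110 and 102 CPM in F2. In damt-1 it was at 75.5 and 86.7 CPM untreated and at 91.9 and 75.1 CPM in P0. pqn-48 was at 47.7 and 51.7 CPM in untreated wild type, 69.3 and 72.9 CPM in P0 and 79.3 and 72.0 CPM in untreated damt-1. The untreated genotype differences were 0.67 ± 0.11 and 0.60 ± 0.09 (SE, edgeR adjusted p = 3.3e-05 and 1.2e-05).

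pqn-85, the cohesin loader scc-2, was at 250 and 248 CPM in untreated wild type and rose slightly to 289 and 304 CPM in F1 and 294 and 312 CPM in F2. The differences were 0.25 ± 0.05 and 0.28 ± 0.05 on the log2 scale (edgeR adjusted p = 0.00031 and 9.1e-05), the first being 0.10 (edgeR adjusted p = 0.15) with scaling from sparse transcripts. In damt-1 it was at 237 and 240 CPM untreated and at 222 and 221 CPM in F1. It was lower in damt-1 than in wild type under P0, F1 and F2, by -0.39 ± 0.05, -0.42 ± 0.05 and -0.48 ± 0.05 (edgeR adjusted p = 4.6e-06, 7.1e-07 and 1e-07).

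pqn-60, which RefSeq names srlf-35, had 1 count over both untreated wild type libraries and 11.9 and 9.89 CPM in untreated damt-1. The count ratio was 87.3, with an exact 95% counting interval from 15.2 to 3490. In wild type it was at 3.22 and 2.04 CPM in F1 and 3.45 and 3.23 CPM in F2, and it is not listed for P0. In damt-1 it was at 4.496 and 4.78 CPM in P0, a fall of -1.22 ± 0.38 (edgeR adjusted p = 0.033) that was lost when any 1 of the 4 libraries was left out and under DESeq2.

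pqn-67 differed between the genotypes in every condition. Its wild type libraries were at 21.5 and 15.6 CPM untreated, 33.9 and 27.3 CPM in P0, 19.8 and 16.3 CPM in F1 and 21.7 and 25.1 CPM in F2. The damt-1 libraries were at 3.51 and 2.79 CPM, 5.74 and 7.43 CPM, 5.20 and 6.02 CPM, and 8.82 and 4.91 CPM in the same order. The log2 differences of damt-1 to wild type were -2.54 ± 0.31, -2.21 ± 0.25, -1.67 ± 0.28 and -1.74 ± 0.26 (SE, edgeR adjusted p = 4.1e-07, 1.5e-07, 2.5e-05 and 5.9e-06).

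**Figure D3:**
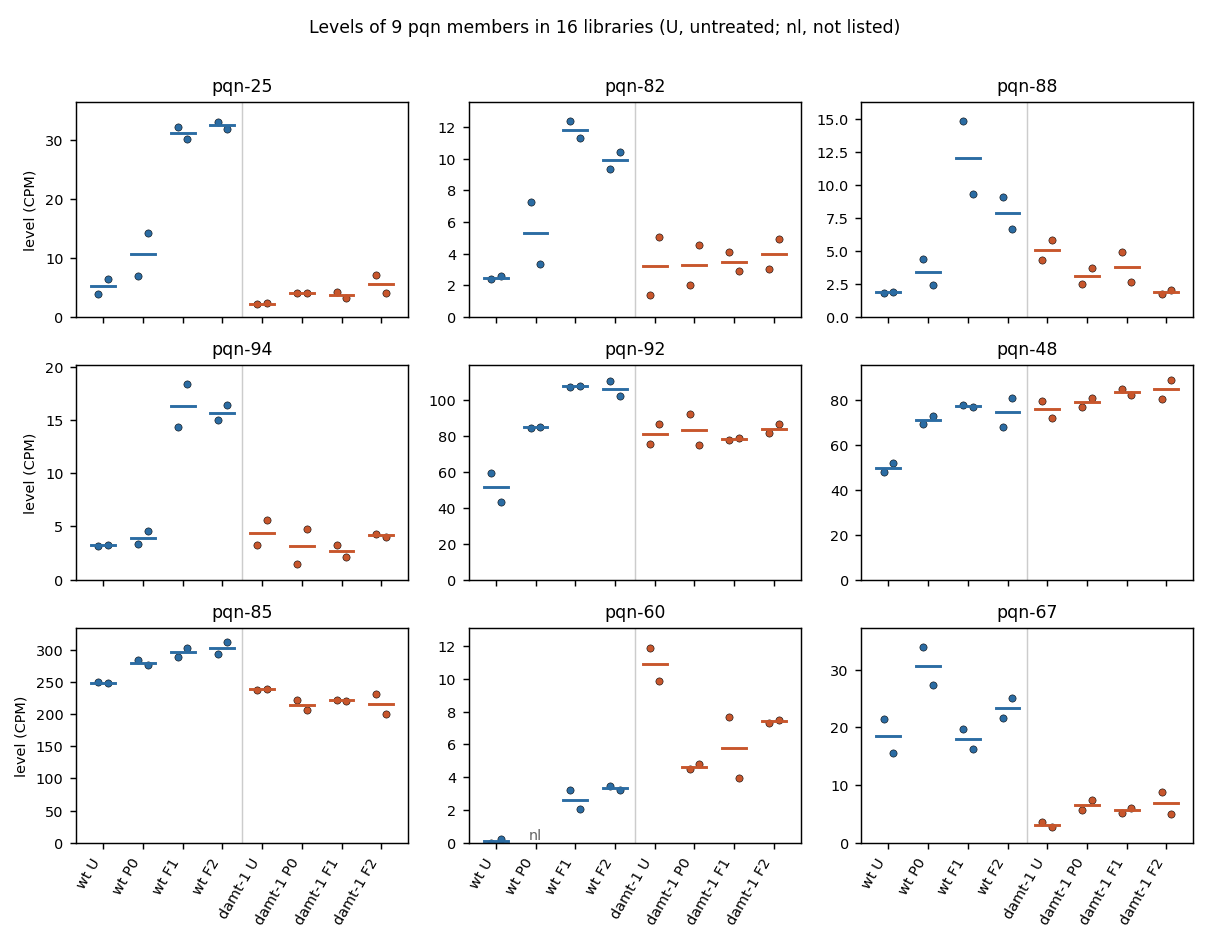
Level in CPM (vertical axes, starting at 0 with a separate scale per gene) of 9 pqn members in the 16 libraries, with wild type in blue and damt-1 in orange, points for libraries, bars for the mean of 2 and nl for a group in which the transcript is not listed. pqn-25, pqn-82, pqn-88 and pqn-94 are highest in wild type F1 and F2, and pqn-67 is lower in all damt-1 libraries than in any wild type library.

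The level of pqn-59 changed little with treatment. This transcript, of the UBAP2L homolog, was at 649 and 623 CPM in untreated wild type, with no call for treatment in either genotype and log2 differences from -0.03 to 0.04. With scaling from sparse transcripts it was called lower in wild type F1 than untreated (log2 -0.17, edgeR adjusted p = 0.028). It was higher in untreated damt-1, at 707 and 685 CPM (log2 0.13 ± 0.04, edgeR adjusted p = 0.011), and that call was lost without the second untreated wild type (log2 0.10, edgeR adjusted p = 0.14) or first untreated damt-1 library (log2 0.11, edgeR adjusted p = 0.12). Treated damt-1 also exceeded wild type in F1 and F2, by 0.15 ± 0.04 in both (edgeR adjusted p = 0.0035 and 0.0031), and the F2 call was lost without the second damt-1 F2 library (log2 0.09, edgeR adjusted p = 0.099). In P0 the difference was 0.06 with no call, and it was called with scaling from sparse transcripts (log2 0.19, edgeR adjusted p = 0.02).

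pqn-96 was at 82.4 and 78.3 CPM in untreated wild type and at 104 and 107 CPM in untreated damt-1 (log2 0.39 ± 0.07, edgeR adjusted p = 6.3e-05). pqn-44, which RefSeq names tent-5, a poly(A) polymerase, was between 0.453 and 2.33 CPM in all libraries and was not tested.

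Over the 36 tested pqn transcripts the untreated genotype comparison gave 16 lower and 6 higher, a median log2 difference of -0.18, where 20.3% of all transcripts were called lower and 17.9% higher. In wild type, antimycin A gave 6 higher and 3 lower of 35 in P0, 9 and 8 of 36 in F1, and 11 and 7 of 36 in F2. The share of all transcripts called was 13%, 26.2% and 25.9% higher and 8.14%, 20.7% and 21% lower. In damt-1, 8 were higher and 1 lower of 35 in P0, 10 and 0 of 36 in F1, and 10 and 0 of 36 in F2. The share of all transcripts called was 8.41%, 7.69% and 7.9% higher and 5.68%, 5.53% and 5.84% lower.

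For abu and pqn together, the wild type counts depended on the scaling and, in P0, on single libraries. Of all transcripts 21.1%, 46.9% and 46.9% were called in either direction in P0, F1 and F2. Wild type P0 gave 6 higher and 5 lower of 44, against 4 and 6 with scaling from sparse transcripts. That scaling took the calls over all transcripts in P0 from 2643 to 2572. Under DESeq2 the 11 members called in P0 became 5, and calls over all transcripts went from 2643 to 1678. Without the first untreated or the first P0 library fewer members were called, and so were fewer of all transcripts. F1 gave 9 higher and 14 lower and F2 11 and 15 of 45, against 7 and 21 and 8 and 20 with scaling from sparse transcripts. With that scaling, calls over all transcripts went from 5890 to 6405 in F1 and from 5881 to 6153 in F2. F1 against P0 gave 5 higher and 6 lower of 44, where 12.2% and 10.2% of all transcripts were called, and F2 against P0 gave 4 and 8, where 12.1% and 10.4% were called, together 22.4% and 22.5%. With scaling from sparse transcripts these became 3 and 12, and 3 and 10. Calls over all transcripts then went from 2798 to 3023 and from 2809 to 2764. Without the second F1 library fewer members were called in F1 against P0, and so were fewer of all transcripts.

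Between the treated genotypes, damt-1 against wild type gave 10 higher and 8 lower of 43 members in P0, 17 and 12 of 45 in F1, and 17 and 11 of 45 in F2. Higher calls covered 15.5%, 24.6% and 23.3% of all transcripts and lower calls 20.2%, 26.9% and 26%. Calls in either direction covered 35.8%, 51.4% and 49.3%. With scaling from sparse transcripts the counts were 19 and 6, 25 and 10, and 26 and 7. Calls over all transcripts rose as well, from 4430, 6376 and 6104 to 5504, 7613 and 7537. That scaling moved the median log2 difference of all transcripts to 0.138, 0.249 and 0.237 in these comparisons. The members that differed by several log2 units were far beyond this shift. Within it, a small negative difference could change sign, as that of abu-14 did in F1 and F2. The positive difference of abu-13 in F1 kept its sign, at 0.20 and, with that scaling, 0.44.

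**Figure D4:**
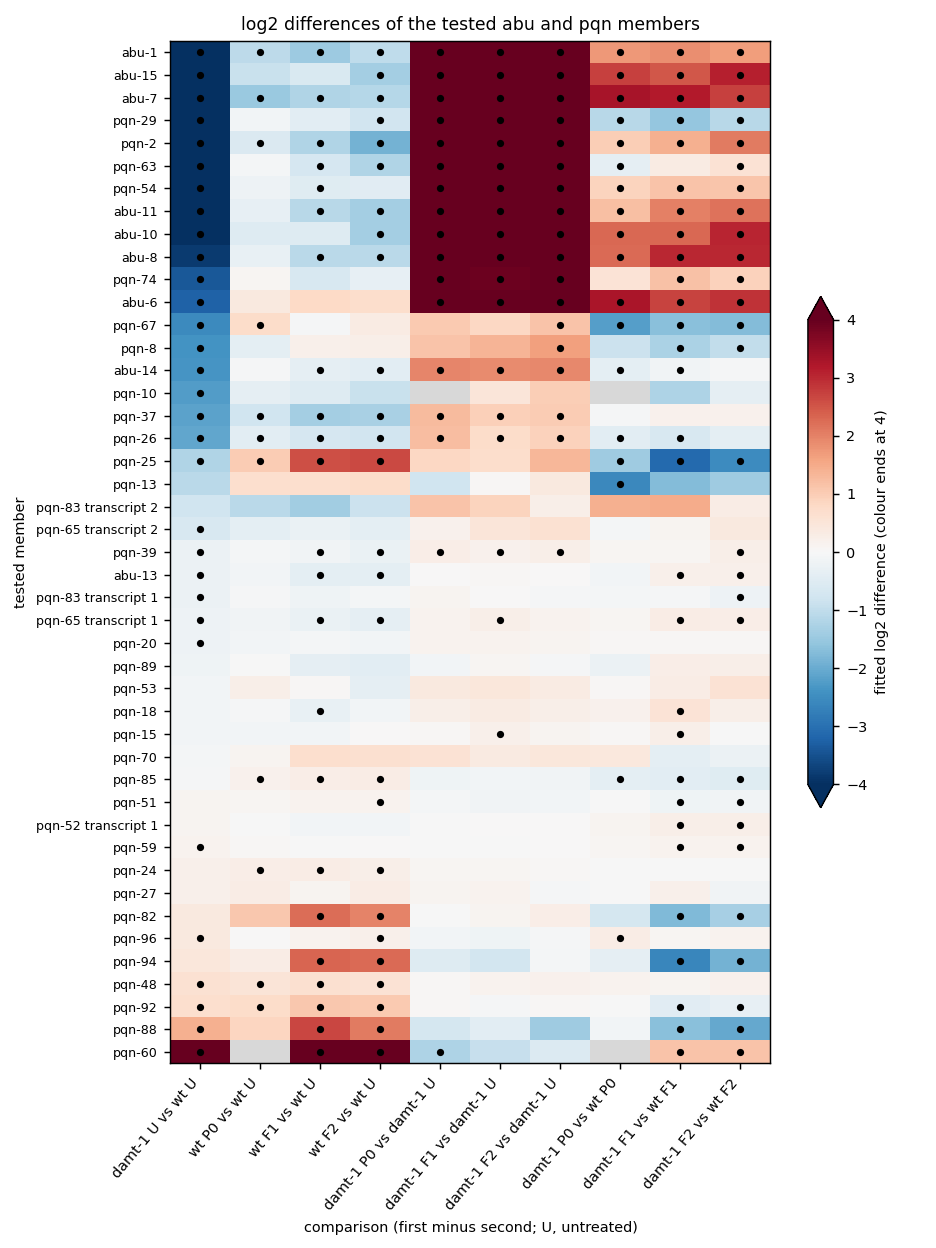
Fitted log2 difference (colour, red higher and blue lower, ending at 4) of each of the 45 tested members (rows, ordered by the untreated genotype comparison) in 10 comparisons (columns), with a dot where edgeR called the difference and grey where the member is not listed. The upper rows, from abu-1 down to abu-6, are blue in untreated damt-1 against wild type and red in all 3 treated damt-1 groups against untreated damt-1.

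Other genes of the pharyngeal cuticle and glands were set beside the members: the chitin synthase chs-2, the phat mucin-like genes of the glands and those idp genes for disordered proteins that were matched by name. In untreated damt-1 against wild type, 22 of 28 tested were lower and 4 higher, with a median fitted log2 difference of -3.69. No gene of the list was set to a bound for this median, and the abu median without bounds was -4.94. Of all transcripts 20.3% were called lower there and 17.9% higher. In damt-1 P0, F1 and F2 against untreated, 16 of 28, 17 of 25 and 16 of 28 of the list were higher and 2, 1 and 1 lower. The shares of all transcripts were 8.41%, 7.69% and 7.9% higher and 5.68%, 5.53% and 5.84% lower. In wild type 2, 4 and 4 of 29 of the list were higher and 0, 11 and 12 lower. Of all transcripts 13%, 26.2% and 25.9% were higher there and 8.14%, 20.7% and 21% lower. Against wild type under the same label, 12 of 27, 12 of 24 and 11 of 27 of the list were lower in treated damt-1. Only 3, 4 and 4 were higher, unlike most abu members. The medians were -0.72, -0.62 and -0.53, where 20.2%, 26.9% and 26% of all transcripts were lower and 15.5%, 24.6% and 23.3% higher.

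The idp gene Y47D3B.6 (idpc-1 in RefSeq) was at 131 CPM in untreated wild type, 10.5 CPM in untreated damt-1 and 71.4 CPM in damt-1 P0. T06E4.12 and T06E4.14 (idpc-3 and idpc-4) were at 35.0 and 32.7 CPM in untreated wild type and at 39.7 and 37.2 CPM in damt-1 P0, with 0.801 and 0.262 CPM in untreated damt-1. These 2 genes lie in the same RefSeq cluster as pqn-63. The summed level of this list was between 665 and 686 CPM in untreated wild type, 211 and 215 CPM in untreated damt-1 and 452 and 463 CPM in damt-1 P0.

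Between untreated wild type, untreated damt-1 and treated damt-1, markers of pharyngeal muscle moved in the same direction as most abu members. Of 4 tested, 3 were lower in untreated damt-1 than in wild type and 3 were higher in damt-1 P0, F1 and F2 than untreated. Of all transcripts, 20.3% were lower in the first comparison and 8.41%, 7.69% and 7.9% higher in the others. The pharyngeal myosin myo-2 was at 140 CPM in untreated wild type, 53.2 CPM in untreated damt-1 and 138 CPM in damt-1 P0. Their summed level was 337 and 376 CPM in untreated wild type, 217 and 230 CPM in untreated damt-1 and 383 and 340 CPM in damt-1 P0. In wild type they rose with antimycin A, 2, 4 and 4 of 4 in P0, F1 and F2, while every called abu member was lower. Of all transcripts 13%, 26.2% and 25.9% were called higher there. Against wild type under the same label, 3, 4 and 4 of the 4 markers were lower in treated damt-1 and 0 higher, unlike most abu members. The medians were -0.32, -0.79 and -0.83, where 20.2%, 26.9% and 26% of all transcripts were lower. None of the 4 was at 0 in a group, and their part in the result was not tested.

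Of the pharynx transcription factors 3 were tested, and in untreated damt-1 1 was higher, peb-1 at 21.1 CPM beside 4.80 CPM in wild type, and 0 were lower. Of all transcripts 17.9% were called higher there and 20.3% lower. None of the 3 factors was called between treated and untreated damt-1, where 14.1%, 13.2% and 13.7% of all transcripts were called in P0, F1 and F2. pha-4, the organ selector gene of the pharynx, was at 7.51 CPM in untreated wild type and 4.51 CPM in untreated damt-1 (log2 -0.73 ± 0.43, edgeR adjusted p = 0.20).

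Genes that change across larval development also differed between the groups. The 6 furrow collagens of the body cuticle were all higher in untreated damt-1, with a median log2 difference of 2.18, and 5, 6 and 6 of them were higher in wild type P0, F1 and F2 than untreated. In damt-1 P0, F1 and F2, 0 were higher and 4, 3 and 4 lower than untreated. Of all transcripts, 17.9% were higher in untreated damt-1, and 13%, 26.2% and 25.9% in wild type P0, F1 and F2. In damt-1 P0, F1 and F2, 5.68%, 5.53% and 5.84% of all transcripts were lower. All 6 were also higher in treated damt-1 than in wild type under P0, F1 and F2, with medians of 1.23, 0.52 and 0.47. There 15.5%, 24.6% and 23.3% of all transcripts were higher. dpy-7 was at 79.1 CPM in untreated wild type, 143 CPM in wild type P0, 231 CPM in wild type F1 and 357 CPM in untreated damt-1.

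The adult collagen col-19, which is switched on at the last molt, was at 241 CPM in untreated wild type, 0.523 CPM in untreated damt-1 and 130 CPM in damt-1 P0. Of 8 adult cuticle collagens tested, 5 were lower and 2 higher in untreated damt-1, and 4 were higher and 1 lower in damt-1 P0. In wild type, where 2, 6 and 8 of the 9 abu members were called lower in P0, F1 and F2, 1, 7 and 6 of these collagens were lower and 2, 1 and 1 higher than untreated under the same labels, and their part in the result was not tested. Of all transcripts 8.14%, 20.7% and 21% were lower there and 13%, 26.2% and 25.9% higher. Of 20 transcripts of the molting cycle list, 11 were higher and 6 lower in untreated damt-1, and 2 were higher and 6 lower in damt-1 P0. Beside both lists, 17.9% of all transcripts were called higher and 20.3% lower in untreated damt-1, and 8.41% and 5.68% in damt-1 P0. Against wild type under P0, F1 and F2, 4, 6 and 5 adult collagens were higher in treated damt-1 and 1, 0 and 0 lower. Of the molting cycle list 9, 10 and 12 were higher there and 3, 1 and 1 lower. The medians were 0.09, 0.38 and 0.39, and 0.22, 0.31 and 0.31, beside 2.28, 2.30 and 2.75 for abu. Of all transcripts 15.5%, 24.6% and 23.3% were higher and 20.2%, 26.9% and 26% lower. noah-2, with the smallest adjusted p of the molting cycle list, was higher, at 913 CPM in untreated damt-1 beside 302 CPM in wild type. The exact stage of the worms within L4 was not tested.

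Genes of the unfolded protein response of the endoplasmic reticulum, for which the abu genes are named, were counted in the same way. Of 18 tested, 3 were higher and 1 lower in untreated damt-1, with a median log2 difference of 0.07, where 17.9% and 20.3% of all transcripts were called. In damt-1 P0 against untreated 2 were higher and 1 lower, where 8.41% and 5.68% were called. In wild type 1, 2 and 2 were higher and 1, 5 and 4 lower in P0, F1 and F2, where 13%, 26.2% and 25.9% of all transcripts were higher and 8.14%, 20.7% and 21% lower. Treated damt-1 against wild type gave 4, 10 and 9 higher and 0, 1 and 1 lower in P0, F1 and F2, with medians of 0.08, 0.19 and 0.14, where 15.5%, 24.6% and 23.3% of all transcripts were higher. The chaperone hsp-4, a standard readout of this response, was at 277 CPM in untreated wild type, 244 CPM in untreated damt-1 and 280 CPM in damt-1 P0.

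Markers of other tissues were counted in the same way. In untreated damt-1 against wild type, lower calls covered 0 of 3 for body wall muscle, 1 of 4 for intestine, 0 of 2 for hypodermis, 1 of 2 for neurons, 2 of 3 for germ line and 1 of 2 for sperm. Higher calls covered 1 of 3 for body wall muscle and 1 of 3 for germ line and 0 for the other lists. Of all transcripts 20.3% were called lower there and 17.9% higher. Germ line markers summed to 690 and 665 CPM in untreated wild type, 574 and 576 CPM in untreated damt-1 and 478 and 461 CPM in damt-1 P0. In wild type all 3 germ line markers rose with each label, to sums of 869 and 884 CPM in P0, 1010 and 976 CPM in F1 and 989 and 1000.4 CPM in F2. In damt-1 P0, F1 and F2, 2 of the 3 were lower than untreated. Of all transcripts, 13%, 26.2% and 25.9% were higher in wild type P0, F1 and F2, and 5.68%, 5.53% and 5.84% lower in damt-1. The part of these shifts in the result was not tested.

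**Figure D5:**
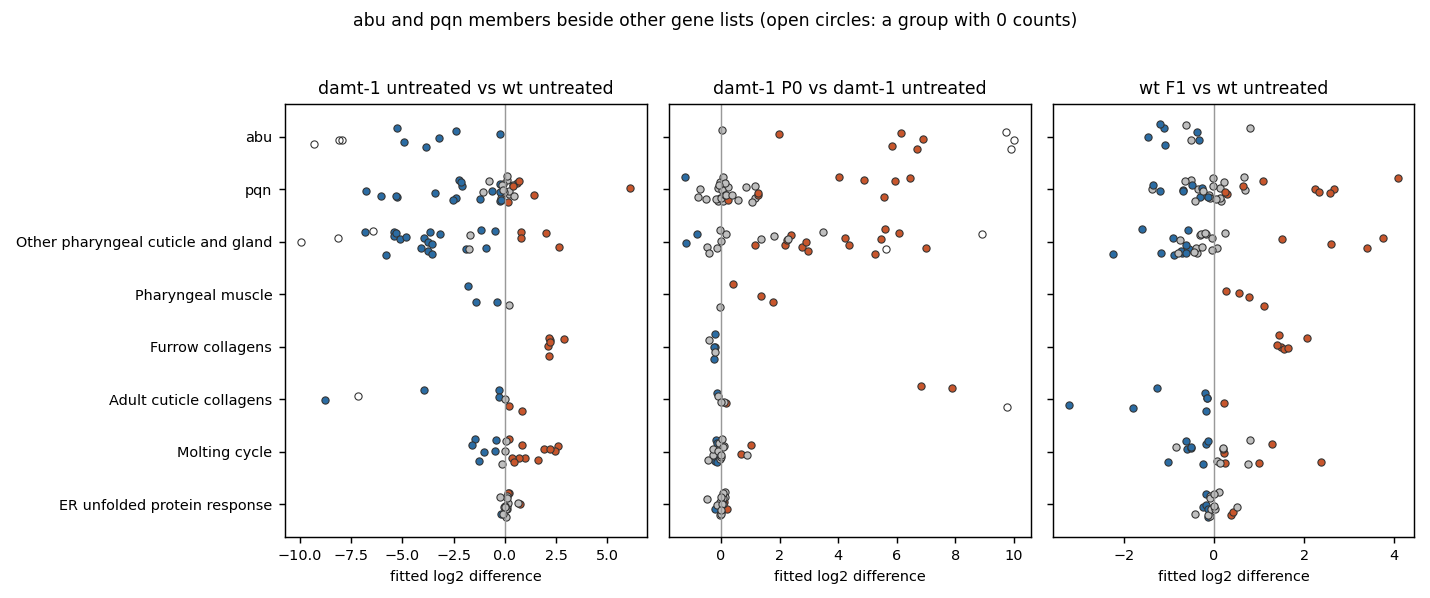
Fitted log2 difference (horizontal axis, separate scale per panel) of each tested abu and pqn member and of each tested gene of 6 other lists in 3 comparisons, with orange for higher and blue for lower calls by edgeR, grey for no call and open circles where a group had 0 counts. The abu members lie left of 0 in untreated damt-1 against wild type, as do most other pharyngeal genes, of which 4 were called higher, and both lists lie mostly right of 0 in damt-1 P0 against untreated.

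Over the 8 group means, log2 levels of genes outside the family were correlated with the mean of the 9 tested abu members. The highest Pearson r were those of K05B2.4, Y41C4A.32, F09C8.2, C54D2.1 and prx-6, at 0.995, 0.986, 0.977, 0.974 and 0.973. The points are 8 group means that share the same libraries, and no p is given. Pearson r does not measure the size of a change. The group means ran only from 191 to 227 CPM for F09C8.2 and from 103 to 152 CPM for prx-6. Y41C4A.32 was at 86.0 CPM in untreated wild type, 28.6 CPM in untreated damt-1 and 160 CPM in damt-1 P0. C54D2.1, named idpp-11 in RefSeq, had 0 counts in untreated damt-1 and 12.1 CPM in damt-1 P0. Despite its idp name it was not among the transcripts counted in the pharyngeal cuticle and gland list above. Within the family the highest r with the same mean were 0.994, 0.993 and 0.992 for abu-15, abu-10 and abu-8, which are part of that mean. Among pqn members they were 0.960, 0.957 and 0.945 for pqn-2, pqn-74 and pqn-54.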

How the data were processed

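The deposited values used were raw counts per RefSeq transcript, which are whole numbers in the authors' files, in 6 tables of 4 libraries each. The submitters' processing notes name build ce10, HTSeq 0.9.1 and HISAT2 2.0.5, besides DESeq2 1.20.0 in R 3.5.0, Trimmomatic 0.35 and SAMtools 1.3.1. Strand, multi-mapped reads and duplicates are not given in the sources used here. The 24 per-sample columns of the authors' comparison tables were not used. Each genotype has a single untreated group, whose columns recur unchanged in its 3 tables. RefSeq, of another build, gave names for 53 members (42 by accession, 11 by symbol) and gene neighbours, and no coordinates are printed.

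edgeR 4.0.16 under R 4.3.3 was used for the fits. Its filterByExpr function (groups given, min.count 10) kept 12592 transcripts. All 16 libraries entered a single robust quasi-likelihood fit after TMM scaling, with a mean for each group. Calls were made at 0.05 after Benjamini-Hochberg adjustment across every transcript tested in a comparison. A transcript not listed in a table entered as 0 there and was not tested in comparisons with that group. SE is the log2 difference divided by the root of F. CPM use the TMM-scaled totals. Against a group at 0 counts, a fold is a bound that sets the group to 3 counts in total. With 1 to 3 counts, the ratio and its exact 95% counting interval are given. Alternatives were the Wald test of DESeq2 1.42.0, RLE factors, TMM from transcripts under 0.2 counts per nucleotide (called sparse), no filter, only the groups compared, a replicate block and each library left out. The scripts were tested on simulated data. Figures were drawn with matplotlib 3.10.9.

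The members and all gene lists were chosen with earlier results of these data known. Named members are all abu genes, pqn-44, pqn-59, pqn-85 and, per comparison, the largest called rises and falls (up to 4 of each) among members reaching 10 CPM in one group, with libraries that do not overlap, and of each other list up to 3 genes by adjusted p. A planned split of members by cysteine content needed protein sequences, which were not used here, so the profile search used the mean log2(CPM + 0.5) of the 9 tested abu members.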

Additional observations from a re-analysis of the deposited data

Results flagged for a closer look

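In 60 tests of the named members, the change with antimycin A differed between damt-1 and wild type past the threshold of the edgeR interaction test. Named members include those with the largest called interactions, so this count is partly set by that choice. Over all tested members 20 of 43, 31 of 45 and 28 of 45 were called in P0, F1 and F2. Of all transcripts 22%, 40.4% and 40.1% were called. Values are the damt-1 change minus the wild type change on the log2 scale.

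For members with 0 counts in untreated damt-1 the fitted values depend on the prior count and are no bounds: abu-1 gave 11.07, 11.20 and 11.01 in P0, F1 and F2. For abu-7 the values were 11.21, 11.11 and 10.68 in P0, F1 and F2. For abu-15 they were 10.81, 10.58 and 11.18 in P0, F1 and F2.

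Members with 1 to 8 counts in untreated damt-1 also had large fitted values. abu-6 gave 6.49, 5.94 and 6.13 in P0, F1 and F2. The values of abu-8 were 6.12, 6.87 and 6.85 in P0, F1 and F2. abu-10 stood at 7.22, 7.24 and 7.99 in P0, F1 and F2. For abu-11 they came to 6.47, 7.25 and 7.43 in P0, F1 and F2. pqn-2 gave 7.03, 7.46 and 8.13 in P0, F1 and F2. The values of pqn-29 were 5.68, 5.24 and 5.68 in P0, F1 and F2. pqn-63 stood at 4.97, 5.66 and 5.89 in P0, F1 and F2.

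Well counted members with a larger rise or smaller fall in damt-1 were these. abu-13 gave 0.44 and 0.42 in F1 and F2. The values of abu-14 were 2.00, 2.24 and 2.32 in P0, F1 and F2. pqn-26 stood at 1.66, 1.43 and 1.68 in P0, F1 and F2. For pqn-37 they came to 2.07, 2.31 and 2.31 in P0, F1 and F2.

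The opposite sign, a larger rise in wild type, was found for the remaining ones. pqn-25 gave -1.88 in F1. The values of pqn-48 were -0.45, -0.49 and -0.42 in P0, F1 and F2. pqn-60 stood at -4.99 and -4.99 in F1 and F2. For pqn-82 they came to -2.14 in F1. pqn-85 gave -0.32, -0.36 and -0.42 in P0, F1 and F2. The values of pqn-88 were -3.10 and -3.49 in F1 and F2. pqn-92 stood at -0.69, -1.13 and -1.02 in P0, F1 and F2. For pqn-94 they came to -3.05 and -2.36 in F1 and F2. pqn-96 gave -0.30 and -0.25 in F1 and F2. The fitted values of pqn-60 rest on 1 count in untreated wild type. The calls of pqn-96 and, in P0 and F2, of pqn-48 were lost under DESeq2 and with single libraries left out. That of pqn-85 in F1 was lost with scaling from sparse transcripts (-0.21, edgeR adjusted p = 0.059), and those of pqn-25 and pqn-82 with single libraries left out. No test for outlying libraries was applied, since each group has 2.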

How the results depend on the processing

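Over all alternatives the named members gave 2589 values with the same direction and side of the threshold, 158 no longer past it, 37 newly past it and 2 reversed. The reversed values were those of abu-14 in damt-1 against wild type, 0.10 in F1 and 0.17 in F2 on the log2 scale with scaling from sparse transcripts, and the cause was not tested. Of these the F2 value was called higher (edgeR adjusted p = 0.031). Members called in wild type P0 against untreated went from 11 to 5 under DESeq2, where calls over all transcripts went from 2643 to 1678. With 1 library left out, the counts of members called ran from 5 to 8 in wild type P0, 18 to 24 in F1 and 22 to 26 in F2, and from 15 to 17, 14 to 17 and 16 to 19 in damt-1, each against untreated. They ran from 24 to 27 in untreated damt-1 against wild type, 15 to 17, 25 to 28 and 22 to 23 in treated damt-1 against wild type, 18 to 22, 28 to 31 and 24 to 28 for the interactions, and 6 to 10 and 8 to 12 for wild type F1 and F2 against P0. damt-1 F1 and F2 against P0 stayed at 0. In every other comparison, fewer of all transcripts were also called with a library left out. A lone library is then assumed to vary like the other groups. A replicate block gave 10 members in wild type P0 and 32 in untreated damt-1 against wild type, beside 11 and 31. Over all transcripts it gave 2592 and 4706 calls, beside 2643 and 4769. Correlations of same-numbered libraries over 28 pairs of groups ran from -0.058 to 0.036, so no shared effect of the library number was seen. Whether same-numbered libraries were raised or prepared together is not given by the labels. Scaling from sparse transcripts moved the median of all transcripts to -0.12 and -0.10 in wild type F1 and F2 against untreated and to 0.129 and 0.115 in the interactions. Depth limits the members near 0: 15 tested members had under 10 counts over both untreated damt-1 libraries.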
